A study of Homo sapiens with 24 samples.

Results

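The 8 genes described here encode enzymes of cholesterol synthesis, namely HMGCS1, MVD, IDI1, FDPS, FDFT1, SQLE, LSS and DHCR7. They were chosen as a list of gene names, with no measured value in the rule but with earlier results of these data known. Each was found by its Ensembl identifier among the 57736 genes of the count table. All 8 passed the filter on low counts, with 15247 genes tested for DAXX libraries and 16371 for ATRX libraries. RNA was measured by QuantSeq, a 3′ end method for mRNA, in 24 libraries of U87-T cells, a line of U87 glioblastoma cells that carries a TERT transgene in every group. Each series held WT and KO cells, either as controls or treated with etoposide, a poison of topoisomerase II that leaves breaks in DNA, with 3 libraries in each of its 4 groups. Control cells are untreated per the labels and DMSO treated per the study's text, and neither gives the dose or time of etoposide for these libraries. The WT cells carried an empty Cas9 vector, and DAXX_KO and ATRX_KO were each 1 clone made with Cas9. Per the study, both clones were positive for ALT, the alternative lengthening of telomeres, and came from survivors of continued passage. An effect of the knockout, the ALT state and other features of the clone thus cannot be told apart. The study describes its replicates in general as biological, while the labels do not say how the 3 libraries of a group were grown, and p-values measure the spread between these libraries.

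Cholesterol is built from acetyl-CoA by the mevalonate pathway, in which HMG-CoA is made, reduced to mevalonate, phosphorylated and converted to 5-carbon isoprenoid units. These units are joined to farnesyl diphosphate, from which squalene, lanosterol and at last cholesterol are made, while side branches lead to ubiquinone, dolichol and prenylated proteins. In most cells the genes of the pathway are switched on together by SREBP transcription factors when sterols in the endoplasmic reticulum are low, and glioblastoma cells are known for taking up cholesterol from outside as well as making it.

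The reference promoters of the genes are shown first, since several of the 8 moved together in ATRX_KO and others did not. RefSeq windows around a transcript start (build GRCh38.p14) were given for 6 of the 8 genes, in 10 windows, and windows for FDFT1 and SQLE were not used here. The stretches below run from base −180 to base −21 of the first window of 5 genes, where the start is base 0, and are written 5′ to 3′ on the strand of the gene. They are chr5:43313433-43313592 for HMGCS1, chr16:88663112-88663271 for MVD, chr21:46228795-46228954 for LSS and chr11:71448414-71448573 for DHCR7, all on the minus strand, and chr1:155308686-155308845 for FDPS on the plus strand. Capitals mark CCAAT, the box bound by NF-Y, read on either strand (CCAAT or ATTGG). IDI1 is not shown, and the first of its windows held no CCAAT while others did.
HMGCS1: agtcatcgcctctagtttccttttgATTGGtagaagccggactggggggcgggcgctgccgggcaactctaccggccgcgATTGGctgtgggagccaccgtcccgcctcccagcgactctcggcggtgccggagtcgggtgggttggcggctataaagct
MVD: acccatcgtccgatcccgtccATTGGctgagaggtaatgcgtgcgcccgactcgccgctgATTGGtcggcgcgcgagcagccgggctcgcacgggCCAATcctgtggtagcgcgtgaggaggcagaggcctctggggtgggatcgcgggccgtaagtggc
FDPS: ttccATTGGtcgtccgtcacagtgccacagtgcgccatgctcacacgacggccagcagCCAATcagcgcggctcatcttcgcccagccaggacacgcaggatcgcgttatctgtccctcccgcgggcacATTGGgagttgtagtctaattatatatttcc
LSS: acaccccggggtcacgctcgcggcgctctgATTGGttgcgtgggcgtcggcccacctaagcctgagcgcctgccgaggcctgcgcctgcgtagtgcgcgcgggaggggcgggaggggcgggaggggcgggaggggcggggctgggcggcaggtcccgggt
DHCR7: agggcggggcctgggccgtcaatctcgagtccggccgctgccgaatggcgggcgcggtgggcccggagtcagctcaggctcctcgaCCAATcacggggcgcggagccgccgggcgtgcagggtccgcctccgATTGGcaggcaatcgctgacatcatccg
CCAAT was found in 7 of the 10 windows, against 34.6% of all 35116 windows. Each of the 6 genes had it in at least 1 window, but some genes had several windows and no share per gene was computed. The stretch of MVD held 3 matches, at bases −159, −120 and −85, and that of HMGCS1 held 2, at bases −155 and −100. GGGCGG, the box bound by Sp1, was found in 9 of the 10 windows and in 45.0% of all windows. CACGTG was found in the window of LSS alone, against 7.26% of all windows. TCACNCCAC, a core of the sterol regulatory element, was in 0 of the 10 windows and in 1.13% of all windows. All motifs were searched on both strands, and CCAAT and ATTGG overlapped in a window of IDI1. A match describes the letters of these windows and no match says only that the letters are not in them.

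The libraries held 6928950 to 13298557 counts. Levels are given as CPM, counts relative to library size with TMM scaling done within each series. Levels and ranks over the 8 groups thus set groups side by side that were scaled separately by series. On these scales 3 counts, the limit that a count of 0 allows, were 0.217 to 0.405 CPM, a limit for counting error only. As a check of the labels, DAXX was at 6.25, 4.62 and 6.62 CPM in the DAXX_KO control libraries against 35.3, 33.5 and 32.9 CPM in WT. With etoposide DAXX was at 7.31, 11.2 and 11.1 CPM in DAXX_KO against 20.8, 21.5 and 22.7 CPM in WT, a smaller difference (log2 fold change −1.13 against −2.53 in control), and the responses of DAXX to etoposide differed by 1.41 (adjusted p = 0.000195). ATRX was at 87.5, 78.1 and 76.1 CPM in the ATRX_KO control libraries against 187, 193 and 196 CPM in WT, and with etoposide at 60.5, 79.7 and 70.1 CPM against 171, 173 and 181 CPM. In the labels, the genotype field of the DAXX_KO libraries gives ATRX, and their titles were followed. VIM, NES, CD44 and EGFR, markers of glioblastoma cells, were counted in all 24 libraries. Other listed markers were low, with CHI3L1 at 2 to 109 counts, SOX2 at 0 to 59 and OLIG2 at 0 to 17. The astroglial markers GFAP and FABP7 reached at most 6 and 2 counts, and S100B was at 0 throughout. VIM had the highest median level of this list, 3136 CPM, ahead of CD44 at 498 CPM. Of 10 markers of other cell types, 9 were in the table, with a summed level of 30.1 to 55.0 CPM that came mostly from CD68 and RUNX2, and their part in the results was not tested. The summed level of the 10 glioblastoma and astroglial markers moved with both contrasts, for example from 6626.93 to 7223.58 CPM in WT control to 4460.85 to 4772.14 CPM in DAXX_KO control and 2872.46 to 3186.12 CPM in WT with etoposide, and from 6713.63 to 7211.3 CPM in WT control of the ATRX series to 4519.83 to 6197.97 CPM in ATRX_KO control, and its part was not tested either. In bulk RNA, fewer cells of a type and less RNA per cell cannot be told apart.

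Each of the 8 genes was well above this limit, from 38 counts for MVD in its lowest library to 1367 for FDPS in its highest. Levels are compared within a gene only, since a count at the 3′ end depends on the gene. Between the lowest and the highest of the 8 group means, DHCR7 differed 4.14-fold, LSS 3.79-fold, HMGCS1 2.89-fold, IDI1 2.43-fold and SQLE 2.07-fold. MVD, FDPS and FDFT1 ranged less, by 1.61-fold, 1.55-fold and 1.44-fold. The plot of levels shows every library.

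**Figure D1:**
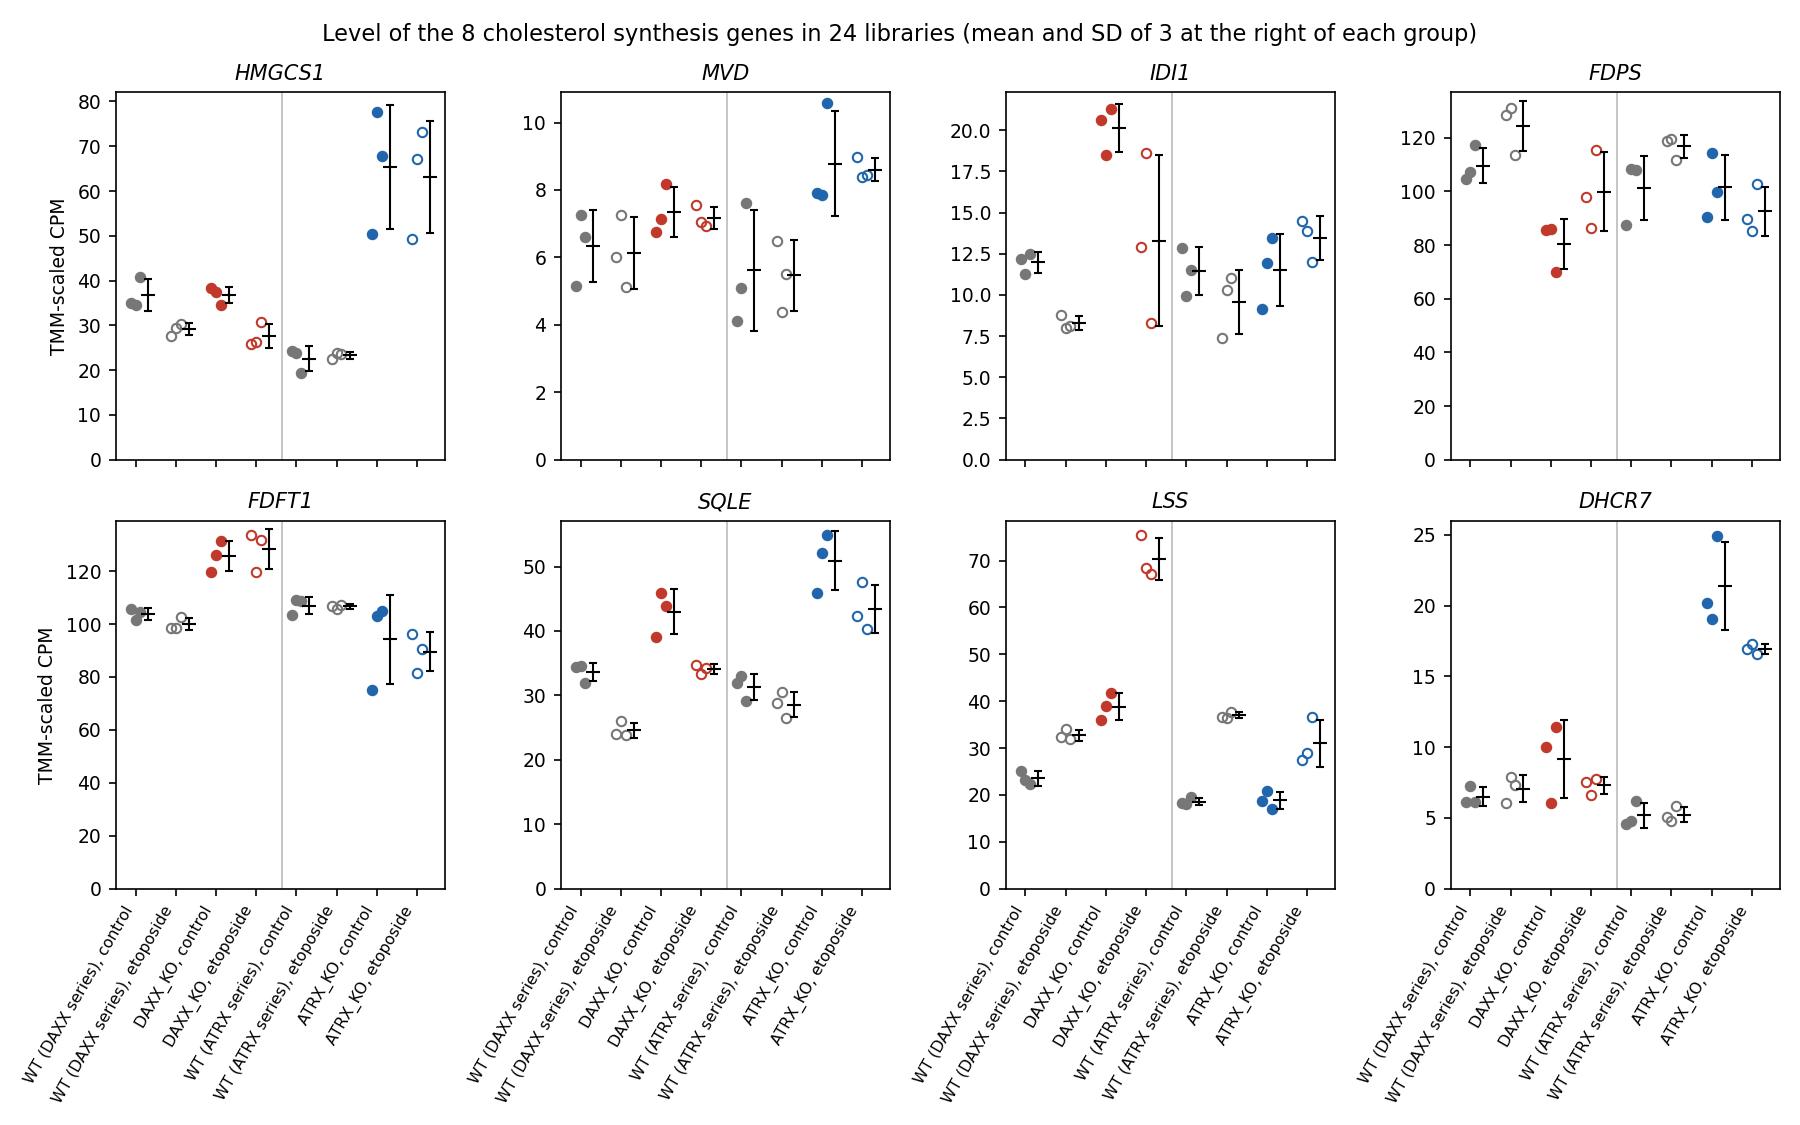
TMM-scaled CPM (vertical axis, linear from 0) of each of the 8 genes in the 24 libraries, with 3 points per group, filled for control and open for etoposide, and the mean and SD beside them. The ATRX_KO libraries stand above all others for HMGCS1 and DHCR7, and DAXX_KO with etoposide stands above all others for LSS.

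The first question is how the enzymes differed between knockout and WT cells. In control cells, DAXX_KO had 5 of the 8 genes higher and 1 lower at an FDR of 0.05, where 26.7% of all genes tested were higher and 26.6% lower. IDI1, FDFT1, SQLE, LSS and DHCR7 rose and FDPS fell, and the median log2 fold change of the 8 was 0.31 against 0.02 for all genes tested. ATRX_KO had 4 genes higher and 0 lower, with backgrounds of 20.8% and 21.0%, and a median of 0.33 against 0.02. The 4 were HMGCS1, MVD, SQLE and DHCR7. The count of 0 lower genes stood at 0 also at an unadjusted p under 0.05 and with DESeq2. With etoposide, DAXX_KO had 4 higher and 1 lower (backgrounds 27.9% and 25.2%), and ATRX_KO had 5 higher and 1 lower (backgrounds 23.0% and 22.9%). SQLE rose in both knockouts with and without etoposide. All adjusted p-values are from the quasi-likelihood test of edgeR with Benjamini-Hochberg adjustment over all genes tested.

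**Figure D2:**
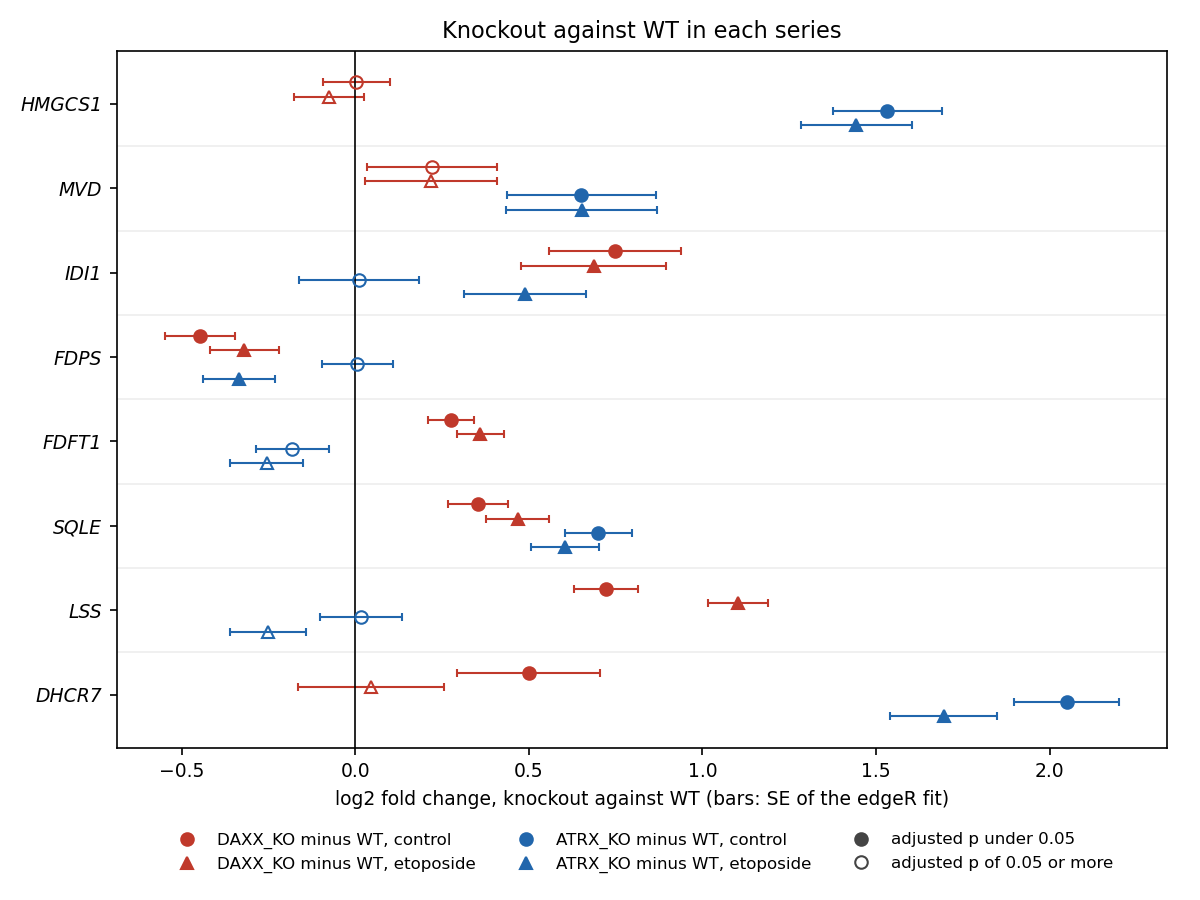
Log2 fold change of knockout against WT (horizontal axis) for each gene, with the SE of the edgeR fit as bars, in control (circles) and with etoposide (triangles), filled where the adjusted p is under 0.05. HMGCS1 and DHCR7 lie at 1.44 to 2.05 in ATRX_KO, and LSS lies at 0.72 and 1.10 in DAXX_KO.

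The pathway enters mevalonate synthesis with HMGCS1, which makes HMG-CoA (ENSG00000112972, GRCh37 chromosome 5, 43287572 to 43313614, minus strand). HMGCS1 was at 24.3, 23.9 and 19.4 CPM in WT control of the ATRX series and at 50.4, 77.7 and 67.8 CPM in ATRX_KO. The groups did not overlap, and HMGCS1 rose 2.89-fold (log2 fold change 1.53 ± 0.16 (SE), adjusted p = 6.52e-07). With etoposide it was at 22.5, 23.8 and 23.6 CPM in WT and at 49.2, 67.1 and 73.3 CPM in ATRX_KO, a log2 change of 1.44 ± 0.16 (SE, adjusted p = 1.34e-06). In DAXX_KO it was at 38.2, 37.5 and 34.7 CPM in control, among the 34.9, 34.5 and 40.8 CPM of WT, and the log2 change was 0.00 ± 0.10 (SE, adjusted p = 0.986). The WT control libraries themselves differed between the series, and HMGCS1 was higher in those of the DAXX series by 0.74 ± 0.14 on the log2 scale (SE, adjusted p = 0.000932), where 13.2% of all genes differed. Its order of group means put the ATRX_KO groups first, without overlap with the third, and the WT groups of the ATRX series last.

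MVD, the decarboxylase that makes isopentenyl diphosphate (ENSG00000167508, chromosome 16, 88718343 to 88729569, minus strand), had the lowest counts of the 8. It was at 7.92, 7.86 and 10.6 CPM in ATRX_KO control against 4.12, 5.09 and 7.62 CPM in WT, and rose with a log2 change of 0.65 ± 0.21 (SE, adjusted p = 0.0217). With etoposide the groups were at 8.99, 8.38 and 8.44 CPM and 6.47, 4.39 and 5.52 CPM, with a log2 change of 0.65 ± 0.22 (SE, adjusted p = 0.0212). The groups did not overlap in either, but the calls depended on single libraries. In control, leaving out WT replicate 1 gave 0.47 (adjusted p = 0.109), WT replicate 2 gave 0.59 (adjusted p = 0.0756) and ATRX_KO replicate 3 gave 0.50 (adjusted p = 0.0981). With etoposide, leaving out WT replicate 2 gave 0.54 (adjusted p = 0.0867). In DAXX_KO, MVD was at 6.75 to 8.18 CPM in control, overlapping the 5.15 to 7.25 CPM of WT.

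IDI1, the isomerase of isopentenyl diphosphate (ENSG00000067064, chromosome 10, 1085092 to 1095059, minus strand), was at 20.6, 18.5 and 21.3 CPM in DAXX_KO control against 12.2, 11.3 and 12.5 CPM in WT. The groups were apart and IDI1 rose 1.68-fold (log2 fold change 0.75 ± 0.19 (SE), adjusted p = 0.00256). The median log2 fold change of the 35 tested genes around it, up to 30 on each side as far as the chromosome goes, was 0.54, which left 0.21. With etoposide the DAXX_KO libraries spread to 12.9, 18.6 and 8.29 CPM and overlapped WT at 8.78, 7.97 and 8.10 CPM. The call (0.69 ± 0.21 (SE), adjusted p = 0.00951) was lost without DAXX_KO replicate 2, with 0.35 and an adjusted p of 0.114, and the neighbours had a median of 0.60. In ATRX_KO, IDI1 was at 9.13, 11.96 and 13.4 CPM in control, overlapping WT, and at 14.5, 13.9 and 11.99 CPM with etoposide against 7.40, 10.3 and 11.04 CPM in WT. The latter passed with 0.49 ± 0.18 (SE, adjusted p = 0.0307) and did not pass without WT replicate 1 (0.36, adjusted p = 0.129), ATRX_KO replicate 1 (0.44, adjusted p = 0.0793) or ATRX_KO replicate 2 (0.47, adjusted p = 0.0815).

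FDPS, which makes farnesyl diphosphate, the last step shared with the side branches (ENSG00000160752, chromosome 1, 155278539 to 155290457, plus strand), was lower in DAXX_KO. It was at 85.5, 85.9 and 69.8 CPM in DAXX_KO control against 105, 107 and 117 CPM in WT, and fell by 0.45 ± 0.10 on the log2 scale (SE, adjusted p = 0.00102). Scaling by library totals alone, which shifted the median of all genes by 0.185 in this comparison, gave −0.26 for FDPS. With etoposide FDPS fell by 0.32 ± 0.10 in DAXX_KO (SE, adjusted p = 0.0115) with overlapping groups, and by 0.33 ± 0.10 in ATRX_KO (SE, adjusted p = 0.0134), at 89.7, 85.2 and 103 CPM against 119, 120 and 112 CPM. Both calls rested on single libraries, since the adjusted p was 0.0545 without WT replicate 2 and 0.0689 without DAXX_KO replicate 2 in the DAXX series, and 0.0677 without WT replicate 1, 0.0680 without WT replicate 2 and 0.0725 without ATRX_KO replicate 2 in the ATRX series. Its neighbours along the chromosome had medians of −0.20, −0.25 and −0.31 in these 3 comparisons. In ATRX_KO control FDPS was at 90.3, 114 and 99.9 CPM, among the 87.3, 108 and 108 CPM of WT. The 8 named pseudogenes of FDPS held 12 counts in all libraries together, 0.0479% of its own.

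FDFT1, the synthase of squalene (ENSG00000079459, chromosome 8, 11653082 to 11696904, plus strand), moved least of the genes called in DAXX_KO control. Its libraries were at 120, 126 and 131 CPM against 106, 101 and 104 CPM in WT, and FDFT1 rose 1.21-fold (log2 fold change 0.28 ± 0.07 (SE), adjusted p = 0.00177). It was 0.46 with library totals alone and 0.08 after subtracting the median of its neighbours. With etoposide it was at 134, 120 and 132 CPM against 98.6, 98.6 and 103 CPM, a log2 change of 0.36 ± 0.07 (SE, adjusted p = 0.000153). In ATRX_KO the log2 changes were −0.18 ± 0.10 (SE, adjusted p = 0.182) in control and −0.25 ± 0.10 (SE, adjusted p = 0.0577) with etoposide, where its neighbours had medians of −0.36 and −0.44. The latter passed in 7 of 20 alternatives. The ATRX_KO control library of replicate 1 stood apart at 74.9 CPM, with the others at 103 and 105 CPM.

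SQLE, the epoxidase of squalene (ENSG00000104549, chromosome 8, 126010739 to 126034525, plus strand), was the gene called higher in every comparison of knockout and WT. In control it was at 45.9, 52.0 and 54.8 CPM in ATRX_KO against 31.9, 33.0 and 29.1 CPM in WT, a log2 change of 0.70 ± 0.10 (SE, adjusted p = 1.8e-05). In the DAXX series SQLE was at 39.1, 45.9 and 43.9 CPM against 34.4, 34.5 and 31.95 CPM, a log2 change of 0.35 ± 0.09 (SE, adjusted p = 0.00192), or 0.54 with library totals alone. With etoposide the log2 changes of SQLE were 0.60 ± 0.10 in ATRX_KO (SE, adjusted p = 8.88e-05) and 0.47 ± 0.09 in DAXX_KO (SE, adjusted p = 0.000249). No groups overlapped in these 4 comparisons, and the 4 calls held in each of their 20 alternatives.

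LSS, the synthase of lanosterol (ENSG00000160285, chromosome 21, 47608055 to 47648738, minus strand), was at 36.0, 38.9 and 41.6 CPM in DAXX_KO control and at 25.2, 23.1 and 22.2 CPM in WT. It rose 1.65-fold (log2 fold change 0.72 ± 0.09 (SE), adjusted p = 1.86e-06). With etoposide it was at 75.5, 68.5 and 67.1 CPM in DAXX_KO and 32.2, 34.0 and 31.9 CPM in WT, a 2.15-fold rise (log2 fold change 1.10 ± 0.09 (SE), adjusted p = 3.02e-09). DAXX_KO with etoposide had the highest level of the 8 groups, apart from all others. The neighbours of LSS had medians of 0.02 and −0.17 in these comparisons. In ATRX_KO, LSS was at 18.7, 20.7 and 17.0025 CPM in control, among the 18.2, 18.1 and 19.5 CPM of WT. The 38 tested genes around it had a median log2 fold change of −0.72 there and of −0.86 with etoposide, where LSS itself had −0.25 ± 0.11 (SE, adjusted p = 0.0739), and −0.39 (adjusted p = 0.00764) without ATRX_KO replicate 3. LSS was also higher in WT control of the DAXX series than in that of the ATRX series, by 0.38 ± 0.11 (SE, adjusted p = 0.0163), which did not pass without DAXX-series replicate 1 (adjusted p = 0.102) or ATRX-series replicate 1 or 2 (adjusted p = 0.0588 and 0.0617).

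DHCR7, the reductase of the last step to cholesterol (ENSG00000172893, chromosome 11, 71139239 to 71163914, minus strand), differed most. It was at 20.2, 19.1 and 24.9 CPM in ATRX_KO control against 4.59, 4.75 and 6.18 CPM in WT. DHCR7 rose 4.14-fold (log2 fold change 2.05 ± 0.15 (SE), adjusted p = 1.35e-08), while its neighbours had a median of 0.03. With etoposide it was at 16.9, 17.3 and 16.6 CPM against 5.09, 4.78 and 5.82 CPM, a 3.24-fold rise (log2 fold change 1.69 ± 0.16 (SE), adjusted p = 1.6e-07). The ATRX_KO groups held ranks 1 and 2 of the 8, apart from each other and from the rest. In DAXX_KO control DHCR7 was at 9.996, 6.07 and 11.4 CPM and overlapped the 6.15, 7.25 and 6.13 CPM of WT. That call (0.50 ± 0.21 (SE), adjusted p = 0.0474) held in 7 of 20 alternatives, and without DAXX_KO replicate 3 the value was 0.32 (adjusted p = 0.262). It was also lost without WT replicate 1 (adjusted p = 0.122), WT replicate 3 (adjusted p = 0.118) or DAXX_KO replicate 1 (adjusted p = 0.137), and without any 1 of the 3 WT etoposide libraries or DAXX_KO etoposide replicate 1 (adjusted p = 0.0518 to 0.0588). With etoposide the value in DAXX_KO was 0.05 ± 0.21 (SE, adjusted p = 0.873). An antisense RNA (ENSG00000254682, 71159608 to 71163203, plus strand) overlaps the 5′ end of DHCR7, and the use of strand in counting is not given in the sources used here. Its level was 9.87 to 10.1 CPM in ATRX_KO control and 6.62 to 7.28 CPM in WT, and its share in the counts of DHCR7 was not tested.

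The second question is how the cells responded to etoposide, and LSS was the gene that rose in all 4 comparisons, in WT of each series and in each knockout. The study describes a single control line, so the WT cells of the series are not counted as different lines. LSS went from 25.2, 23.1 and 22.2 CPM to 32.2, 34.0 and 31.9 CPM in WT of the DAXX series and from 18.2, 18.1 and 19.5 CPM to 36.7, 36.5 and 37.7 CPM in WT of the ATRX series. The log2 fold changes of LSS were 0.47 ± 0.09 (SE, adjusted p = 0.000211) and 0.99 ± 0.11 (SE, adjusted p = 1.02e-06) in these WT cells. They were 0.86 ± 0.08 (SE, adjusted p = 5.61e-08) in DAXX_KO and 0.72 ± 0.11 (SE, adjusted p = 5.52e-05) in ATRX_KO. No groups overlapped, and the calls held in each of 20 alternatives. The share of counts taken by BCYRN1, an abundant short RNA, also moved with etoposide, from 4.82% to 7.12% in control to 11.6% to 12.1% with etoposide in WT of the DAXX series, and its part was not tested.

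In the DAXX series HMGCS1, IDI1 and SQLE fell with etoposide in WT and in DAXX_KO. HMGCS1 fell by 0.33 ± 0.10 on the log2 scale in WT (SE, adjusted p = 0.00645) and by 0.41 ± 0.10 in DAXX_KO (SE, adjusted p = 0.00152). SQLE fell by 0.45 ± 0.09 in WT (SE, adjusted p = 0.000288), from 34.4, 34.5 and 31.95 CPM to 23.97, 25.9 and 23.9 CPM, and by 0.33 ± 0.09 in DAXX_KO (SE, adjusted p = 0.0028). IDI1 fell by 0.53 ± 0.21 in WT (SE, adjusted p = 0.0364), a call held in 12 of 20 alternatives and lost with DESeq2 and without any 1 of the 6 WT libraries (adjusted p = 0.051 to 0.0931). IDI1 fell by 0.59 ± 0.19 in DAXX_KO (SE, adjusted p = 0.0117), with overlapping groups, and without DAXX_KO etoposide replicate 3 the value was −0.34 (adjusted p = 0.0641), while without replicate 2 it was −0.93. FDPS rose in DAXX_KO by 0.31 ± 0.10 (SE, adjusted p = 0.0142), a value of 0.20 (adjusted p = 0.106) without etoposide replicate 3 and 0.22 (adjusted p = 0.0928) without control replicate 3. In all, 1 gene was higher and 3 were lower in WT (backgrounds 29.6% and 30.6%), and 2 were higher and 3 lower in DAXX_KO (backgrounds 26.8% and 27.8%).

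In the ATRX series LSS was the only gene of the 8 called in WT, where 31.7% of all genes were higher and 29.8% lower. The count of 0 lower genes was 0 also at an unadjusted p under 0.05 and with DESeq2. In ATRX_KO, 1 gene was higher and 1 lower (backgrounds 24.3% and 25.2%). DHCR7 fell there by 0.34 ± 0.13 (SE, adjusted p = 0.046), from 20.2, 19.1 and 24.9 CPM to 16.9, 17.3 and 16.6 CPM, and this call held in 6 of 20 alternatives. Without ATRX_KO control replicate 3, its highest library, the value was −0.22 (adjusted p = 0.227). The call was also lost without any 1 of the 3 WT etoposide or the 3 ATRX_KO etoposide libraries, at adjusted p-values of 0.0532 to 0.0974. Median log2 fold changes of the 8 were −0.04, −0.19, 0.01 and −0.06 in WT of the DAXX series, DAXX_KO, WT of the ATRX series and ATRX_KO.

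**Figure D3:**
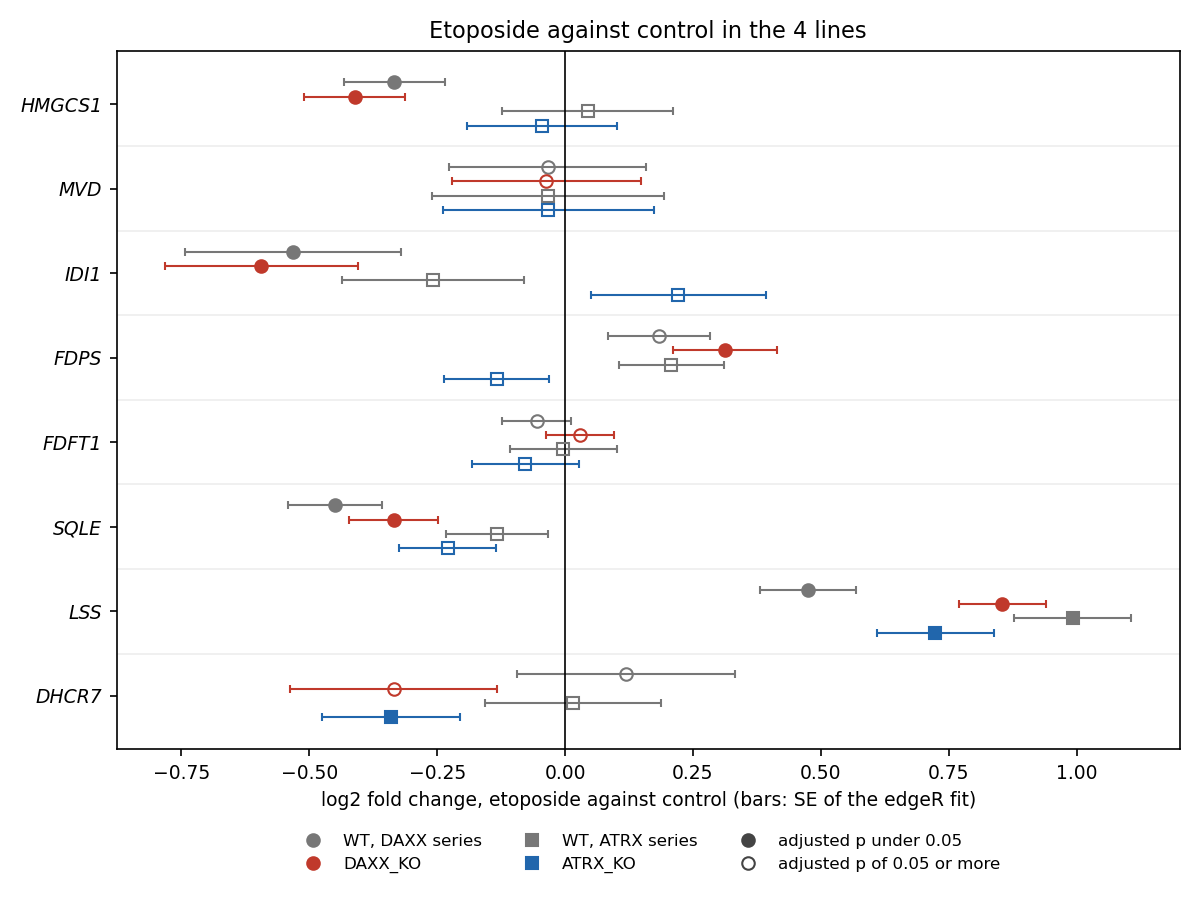
Log2 fold change of etoposide against control (horizontal axis) in WT of each series and in each knockout, with the SE of the edgeR fit as bars and filled points where the adjusted p is under 0.05. LSS lies to the right of 0 in every comparison, from 0.47 to 0.99, and HMGCS1, IDI1 and SQLE lie to the left in the DAXX series.

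The third question is whether the response to etoposide differed between knockout and WT. In the DAXX series this held for LSS alone, where 14.2% of all genes differed. The response of LSS was larger in DAXX_KO by 0.38 ± 0.13 on the log2 scale (SE, adjusted p = 0.05, just under the threshold), and this call was kept in 4 of 19 alternatives, with 0 genes called by DESeq2. It was lost without any 1 of 9 of the 12 libraries (adjusted p = 0.052 to 0.149). In the ATRX series 0 of the 8 genes differed, against 16.0% of all genes. There FDPS had an unadjusted p under 0.05, with −0.34 ± 0.15 (SE, adjusted p = 0.127), and DESeq2 called 0. Between the WT cells of the series, 0 of the 8 responses passed the test of their difference, against 3.15% of all genes, 2 genes at an unadjusted p under 0.05 and 1 gene, LSS, by DESeq2. The responses of LSS, DAXX-series WT minus ATRX-series WT, had a difference of −0.51 ± 0.15 (SE, adjusted p = 0.0507).

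The knockout effects were also set against each other in a model of all 24 libraries, in which the DAXX and ATRX series have separate WT libraries. In control cells 7 of the 8 genes differed, where 34.1% of all genes did, and with etoposide 4 differed against 34.5% of all genes. HMGCS1 and DHCR7 were lower in the DAXX effect by 1.53 and 1.54 on the log2 scale in control and by 1.54 and 1.67 with etoposide. FDFT1 and LSS were higher in the DAXX effect by 0.46 and 0.71 in control and by 0.60 and 1.33 with etoposide. IDI1, FDPS and SQLE passed in control alone, with 0.74 ± 0.28 (SE, adjusted p = 0.0392), −0.45 ± 0.15 (SE, adjusted p = 0.025) and −0.34 ± 0.12 (SE, adjusted p = 0.0331). These 3 calls were lost in 11, 5 and 8 of 30 alternatives, among them the omission of any 1 of 9, 4 and 6 libraries, with the lowest sizes at 0.58 for IDI1 without ATRX_KO replicate 1, −0.36 for FDPS without DAXX_KO replicate 3 and −0.28 for SQLE without DAXX_KO replicate 1. MVD did not pass in either, with −0.43 ± 0.29 (SE, adjusted p = 0.277) and −0.45 ± 0.29 (SE, adjusted p = 0.25). For LSS the neighbouring genes differed as well, with a median of 0.87 in control, and subtracting it left −0.16.

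The genes outside the 8 were taken from fixed lists. SREBP control comes first, since SREBF1 and SREBF2 encode the factors that switch on these enzymes and INSIG1 retains them in the endoplasmic reticulum. SREBF2 was at 39.8, 61.2 and 48.4 CPM in ATRX_KO control against 10.03, 10.2 and 8.55 CPM in WT. SREBF2 rose there with a log2 change of 2.38 ± 0.16 (SE, adjusted p = 3.51e-09), and of 1.85 ± 0.15 with etoposide (SE, adjusted p = 4.93e-08). In DAXX_KO control SREBF2 was at 16.0, 16.2 and 14.7 CPM against 13.0, 11.3 and 12.01 CPM, and the call (0.37 ± 0.15 (SE), adjusted p = 0.0486) was lost in 14 of its alternatives, DESeq2 and the omission of any 1 of 10 libraries (adjusted p = 0.0512 to 0.139) among them.

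SREBF1 was at 33.1, 30.2 and 39.6 CPM in DAXX_KO control against 13.8, 13.0 and 12.5 CPM in WT, and rose with a log2 change of 1.39 ± 0.13 (SE, adjusted p = 2.4e-08). In ATRX_KO control SREBF1 was at 12.3, 15.9 and 21.9 CPM, overlapping 15.9, 18.9 and 19.8 CPM, with a log2 change of −0.12 ± 0.16 (SE, adjusted p = 0.59). The knockout effects differed by 1.51 for SREBF1 and by −2.01 for SREBF2, DAXX series minus ATRX series, in the test of that difference. INSIG1, itself a target of SREBP, rose in both knockouts, by 0.52 ± 0.07 in DAXX_KO (SE, adjusted p = 1.59e-06) and 0.72 ± 0.12 in ATRX_KO (SE, adjusted p = 0.000142). With etoposide INSIG1 fell in all 4 comparisons, by 1.64 and 1.13 in WT of the DAXX and ATRX series, by 1.12 in DAXX_KO and by 0.67 in ATRX_KO.

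**Figure D4:**
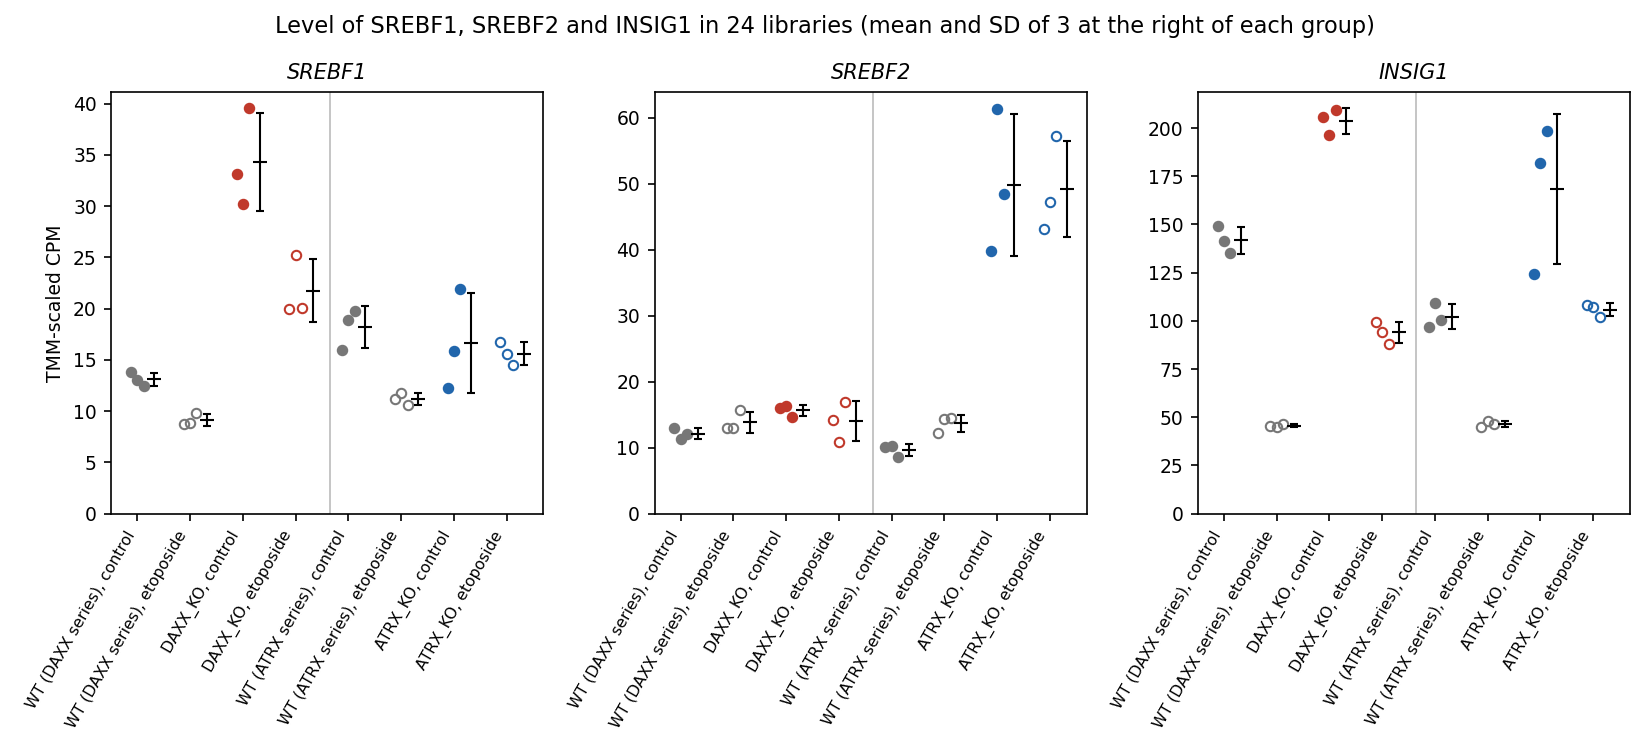
TMM-scaled CPM (vertical axis, linear from 0) of SREBF1, SREBF2 and INSIG1 in the 24 libraries, filled for control and open for etoposide, with mean and SD. The mean of SREBF2 is highest in the ATRX_KO groups and that of SREBF1 in the DAXX_KO groups, and INSIG1 is lower with etoposide in WT of each series and in each knockout.

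The counts of the lists that follow are to be read against the 26.7% of all genes that were higher and 26.6% lower in DAXX_KO control, and 20.8% and 21.0% in ATRX_KO control. Of the 7 genes of SREBP control, 5 rose and 1 fell in DAXX_KO control and 2 rose and 1 fell in ATRX_KO control, with medians of 0.41 and 0.02. Of 13 other enzymes of the mevalonate and sterol steps, 3 rose and 3 fell in DAXX_KO control and 4 rose and 2 fell in ATRX_KO control, with medians of 0.01 and 0.18. MSMO1, which removes methyl groups from lanosterol products, rose in both, by 0.97 ± 0.12 and 0.86 ± 0.16 (SE). LBR, a sterol reductase that is also a protein of the inner nuclear membrane, fell in both, by 1.01 ± 0.07 and 1.07 ± 0.08. With etoposide LBR fell by 2.87 and 3.01 in the WT cells of the DAXX and ATRX series. TM7SF2, which encodes a reductase for the same step, rose by 2.97 and 3.05 in these cells. TM7SF2 was at 22.2, 23.8 and 24.4 CPM with etoposide in WT of the DAXX series and at 5.73, 6.11 and 9.52 CPM in DAXX_KO, and its response differed by −2.11 ± 0.29 (SE, adjusted p = 6.4e-05).

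Among 12 genes of uptake and transport, 11 were tested. In DAXX_KO control 4 rose and 3 fell (median 0.11), and in ATRX_KO control 6 rose and 2 fell (median 0.59), where 26.7% and 26.6% of all genes were higher and lower in DAXX_KO and 20.8% and 21.0% in ATRX_KO. SCARB1, a receptor of high-density lipoprotein, rose by 1.59 ± 0.18 in DAXX_KO and 1.03 ± 0.17 in ATRX_KO (SE). LRP1, an endocytic receptor, rose by 1.10 ± 0.10 and 0.83 ± 0.14. NPC1, which moves cholesterol out of lysosomes, rose by 1.05 ± 0.12 in ATRX_KO and fell by 0.38 ± 0.07 in DAXX_KO.

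Of 9 genes of efflux, esterification and LXR, 7 were tested, with 2 higher in DAXX_KO control and 4 higher and 1 lower in ATRX_KO control (medians 0.35 and 0.43, shares of all genes higher and lower 26.7% and 26.6%, and 20.8% and 21.0%). ABCA1, which exports cholesterol, was at 137, 151 and 147 CPM in DAXX_KO control against 24.3, 21.6 and 24.1 CPM in WT. ABCA1 rose by 2.63 ± 0.08 in DAXX_KO and by 1.70 ± 0.15 in ATRX_KO (SE). ABCA1 also rose with etoposide in the WT cells, by 1.30 ± 0.09 and 1.22 ± 0.16, but fell by 0.36 ± 0.07 in DAXX_KO, and the difference of the responses was −1.66 ± 0.11 (SE, adjusted p = 1.92e-08). In the ATRX series the response of ABCA1 was likewise called lower in ATRX_KO than in WT. Its change with etoposide within ATRX_KO was not called.

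Of 9 fatty acid targets of SREBP tested, 5 rose and 3 fell in DAXX_KO control and 3 rose and 1 fell in ATRX_KO control (medians 0.25 and 0.03, with the same shares of all genes as above, 26.7% and 26.6%, and 20.8% and 21.0%). SCD, the desaturase of stearoyl-CoA, was at 468, 441 and 418 CPM in DAXX_KO control against 105, 123 and 120 CPM, and rose by 1.93 ± 0.07 (SE). In ATRX_KO control SCD was at 142, 313 and 290 CPM against 102, 99.7 and 101 CPM, and rose by 1.30 ± 0.20 (SE). ELOVL6, an elongase of fatty acids, rose in DAXX_KO by 1.10 ± 0.08 and fell in all 4 comparisons of etoposide with control, by 1.21 to 1.48. Of 8 genes of other isoprenoid branches, 2 rose and 1 fell in DAXX_KO control and 3 rose and 2 fell in ATRX_KO control (medians 0.02 and 0.19, with those same shares of all genes). GGPS1, which makes geranylgeranyl diphosphate, rose in both, by 0.60 ± 0.12 and 0.64 ± 0.10 (SE). NUS1 and PDSS1, of the dolichol and ubiquinone branches, fell in all 4 comparisons of etoposide with control, PDSS1 by 0.94 to 1.61.

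**Figure D5:**
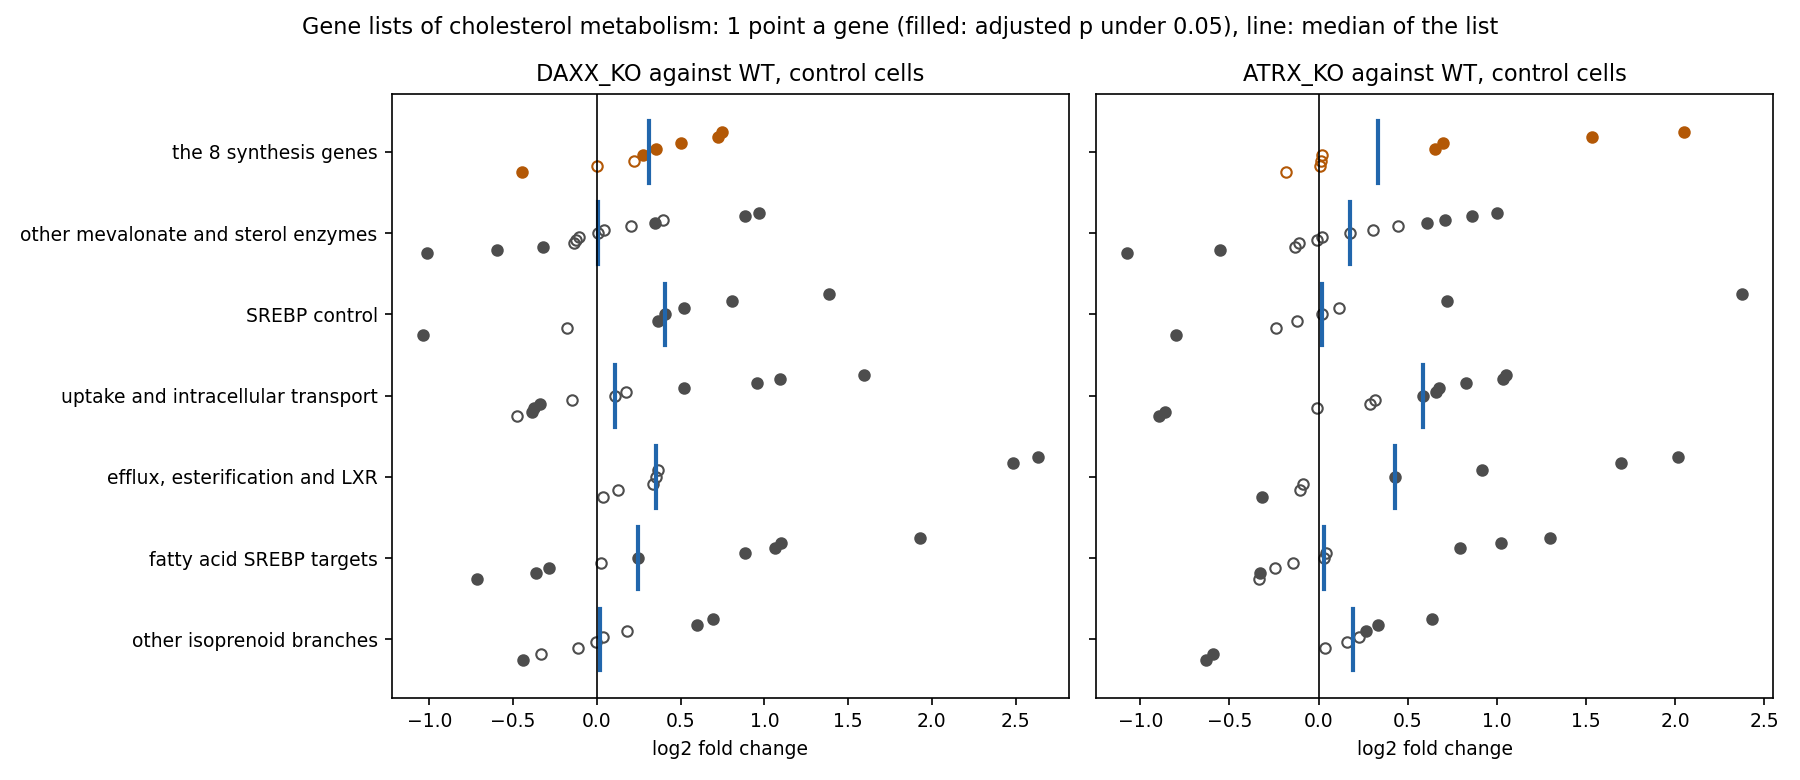
Log2 fold change of knockout against WT in control cells (horizontal axes) for the genes of each list, 1 point per gene, filled where the adjusted p is under 0.05, with the median of the list as a line. The medians of the 8 synthesis genes are 0.31 and 0.33, and single genes of most lists lie on both sides of 0.

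Across the 24 libraries the log2 CPM of the 8 genes did not move as a block. Pearson's r was 0.882 for HMGCS1 with DHCR7, 0.785 for HMGCS1 with SQLE, 0.785 for MVD with DHCR7 and 0.764 for SQLE with DHCR7. It was −0.777 for IDI1 with FDPS and −0.625 for FDPS with SQLE. These values describe libraries that share 8 groups and are given with no p. The genes outside the 8 with the pattern most like their mean, over 24 libraries, were BDKRB2 (r = 0.906), AGO4 (0.899), ENPP2 (0.890), ATP9A (0.886) and DSEL (0.885). The ranking depended on how libraries were pooled, since over the 8 group means BDKRB2 alone of these stayed among the first 5, and with the mean of each series removed 0 of them did, ACO1 (0.934) and FAP (0.921) coming first.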

How the data were processed

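Libraries were made with the QuantSeq 3′ mRNA kit and read as single ends. Per the labels and the study's methods, the authors aligned reads with STAR and deposited estimated counts per Ensembl gene from RSEM (version 1.2.3 in the submitters' processing notes, another version in the methods, build hg19), whether strand was used not being given in the sources used here. Reads at the 3′ end make counts independent of transcript length but sensitive to the choice of poly(A) site.

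Counts were rounded, and symbols were matched to 55501 of 57736 identifiers. Genes were kept by filterByExpr in edgeR 4.0.16 (minimum count 10, total 15), scaled by TMM, and fitted with the quasi-likelihood test, 1 model per series with 4 groups, or 1 model of all 24 libraries for comparisons between series. P-values were adjusted by Benjamini-Hochberg over all genes tested, and the scripts were tested on simulated data. Alternatives were RLE factors, library totals, other filters, DESeq2 1.42.0, a replicate block, other sets of libraries, subtraction of neighbouring genes and leaving out each library. All 8 members were named. Other genes named were, for each list and comparison, at most 3 per direction with the largest change among those called, besides SREBF1, SREBF2 and INSIG1, and the 5 genes most like the mean of the members. A few genes that this rule names were left out. The members and lists were chosen with earlier results of these data known. Replicates of a group differed by more than sampling noise (chi-square per degree of freedom 2.16 to 17.1 over 24 pairs).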

Additional observations from a re-analysis of the deposited data

Results flagged for a closer look

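The test of the difference between 2 groups' effects under the same contrast marked 12 values of the 8 genes. In the DAXX series LSS responded more to etoposide in DAXX_KO than WT cells, with a log2 difference of 0.38 ± 0.13 (SE, adjusted p = 0.05, just under the threshold), and 15 of 19 alternatives did not call it. In that comparison 14.2% of all genes differed.

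In control cells, the effect of the knockout differed between the DAXX series and the ATRX series for 7 genes, where 34.1% of all genes differed. Given as DAXX minus ATRX on the log2 scale, the effect was higher in the DAXX series for IDI1 (0.74), FDFT1 (0.46) and LSS (0.71). It was lower for HMGCS1 (−1.53), FDPS (−0.45), SQLE (−0.34) and DHCR7 (−1.54). The calls of IDI1, FDPS and SQLE held in 19, 25 and 22 of 30 alternatives, and subtracting its neighbours left −0.16 for LSS. With 1 library left out, 4 to 7 genes were called. With etoposide the effect was higher for FDFT1 (0.60) and LSS (1.33) and lower for HMGCS1 (−1.54) and DHCR7 (−1.67), where 34.5% of all genes differed. The knockout, the clone and the series cannot be told apart in these differences.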

How the results depend on the processing

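The 10 comparisons within a series held 34 calls among 80 values of the 8 genes. Of these calls, 22 kept their direction and side of the threshold in every alternative with an adjusted p. Leaving out any 1 library was included, and subtracting the neighbours, which gives no adjusted p, was not. Library totals alone shifted the median of all genes by 0.185 in DAXX_KO control, −0.105 for etoposide in DAXX_KO, −0.111 in the difference of responses and 0.119 between the knockout effects, no filter by 0.13 and 0.16 and DESeq2 by 0.178 and 0.211 for etoposide in DAXX-series WT and ATRX_KO. Among the values that reversed, only LSS between the knockout effects in control was called. The cause of each change below was not tested.

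With RLE size factors, the sign turned for HMGCS1 in DAXX_KO control (−0.035), SREBF2 in DAXX_KO with etoposide (−0.013), MVD for etoposide in DAXX_KO (0.0020), MVD in the response of DAXX_KO minus WT (0.0099), IDI1 in ATRX_KO control (−0.0050), FDPS in ATRX_KO control (−0.0097), SREBF2 for etoposide in ATRX_KO (9.7e-04) and FDPS in the WT responses (5.3e-06). 1 of the 8 was called for etoposide in ATRX_KO. With library totals alone, the sign turned for FDFT1 for etoposide in DAXX_KO (−0.077), FDFT1 in the response of DAXX_KO minus WT (−0.027), MVD for etoposide in ATRX-series WT (0.0014), FDFT1 for etoposide in ATRX-series WT (0.031), HMGCS1 for etoposide in ATRX_KO (0.031), MVD for etoposide in ATRX_KO (0.040), SREBF2 for etoposide in ATRX_KO (0.057), MVD in the WT responses (−0.030) and FDFT1 in WT control between series (−0.053). 0 of the 8 were called in the response of DAXX_KO minus WT, 2 of the 8 were called for etoposide in ATRX-series WT, 1 of the 8 was called for etoposide in ATRX_KO and 1 of the 8 was called in the WT responses. 0.50 was the median of the 8 in DAXX_KO control and −0.26 was the median of the 8 in the knockout effects in control. With no filter, the sign turned for HMGCS1 in DAXX_KO control (−0.021), SREBF2 in DAXX_KO with etoposide (−0.0029), MVD in the response of DAXX_KO minus WT (0.0063), DHCR7 for etoposide in ATRX-series WT (−0.026), FDPS in the knockout effects with etoposide (0.019) and MVD in the WT responses (−0.0023). 0 of the 8 were called in the response of DAXX_KO minus WT. With at least 10 counts in every library, the sign turned for SREBF2 in DAXX_KO with etoposide (−0.012), MVD for etoposide in DAXX-series WT (0.038), FDFT1 for etoposide in DAXX-series WT (0.015), MVD for etoposide in ATRX-series WT (0.035), FDFT1 for etoposide in ATRX-series WT (0.064), HMGCS1 for etoposide in ATRX_KO (0.017), MVD for etoposide in ATRX_KO (0.029), SREBF2 for etoposide in ATRX_KO (0.044), MVD in the response of ATRX_KO minus WT (−0.0065), MVD in the WT responses (−0.0091) and FDFT1 in WT control between series (−0.0026). 0 of the 8 were called in the response of DAXX_KO minus WT, 2 of the 8 were called for etoposide in ATRX-series WT, 1 of the 8 was called for etoposide in ATRX_KO and 1 of the 8 was called in the WT responses. With DESeq2, the sign turned for HMGCS1 in DAXX_KO control (−0.036), SREBF2 in DAXX_KO with etoposide (−0.0075), MVD in the response of DAXX_KO minus WT (0.018), IDI1 in ATRX_KO control (−0.0050) and FDPS in ATRX_KO control (−0.0098). 0 of the 8 were called in the response of DAXX_KO minus WT, 1 of the 8 was called for etoposide in ATRX_KO and 1 of the 8 was called in the WT responses. With the replicate block, the sign turned for MVD in the WT responses (−0.012). 0 of the 8 were called in the response of DAXX_KO minus WT and 1 of the 8 was called in WT control between series. The number called was 1109 of all genes in WT control between series. With all 24 libraries in 1 model, the sign turned for MVD in the response of DAXX_KO minus WT (0.0068) and DHCR7 for etoposide in ATRX-series WT (−0.0067). 0 of the 8 were called in the response of DAXX_KO minus WT. With only the groups compared, the sign turned for HMGCS1 in DAXX_KO control (−6.8e-04) and FDPS in ATRX_KO control (−3.0e-04). 2 of the 8 were called for etoposide in ATRX-series WT and 1 of the 8 was called for etoposide in ATRX_KO. After subtracting the neighbours, the sign turned for LSS in the knockout effects in control (−0.16). −0.20 was the median of the 8 for etoposide in DAXX-series WT, 0.70 was the median of the 8 in ATRX_KO control, −0.22 was the median of the 8 in the knockout effects with etoposide and 0.32 was the median of the 8 in WT control between series.

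With 1 library left out, the number of the 8 called ran from 0 to 1 in the response of DAXX_KO minus WT, 3 to 5 in DAXX_KO with etoposide, 3 to 6 for etoposide in DAXX_KO, 1 to 4 for etoposide in ATRX_KO, 1 to 2 in WT control between series, 4 to 7 in the knockout effects in control and 0 to 1 in the WT responses. With 1 library left out, the median of the 8 ran from −0.21 to −0.049 for etoposide in DAXX_KO, −0.21 to −0.012 for etoposide in ATRX_KO, −0.23 to −0.051 in the response of ATRX_KO minus WT and 0.16 to 0.31 in WT control between series. With 1 library left out, the number of all genes called ran from 279 to 707 in the WT responses and 1106 to 2447 in WT control between series. HMGCS1 then ran from −0.038 to 0.081 in DAXX_KO control, −0.063 to 0.10 for etoposide in ATRX-series WT, −0.25 to 0.063 in the response of ATRX_KO minus WT and −0.21 to 0.099 for etoposide in ATRX_KO. MVD then ran from −0.12 to 0.14 in the response of DAXX_KO minus WT, −0.18 to 0.080 for etoposide in DAXX-series WT, −0.091 to 0.047 for etoposide in DAXX_KO, −0.22 to 0.24 for etoposide in ATRX-series WT, −0.28 to 0.18 in the response of ATRX_KO minus WT, −0.11 to 0.12 for etoposide in ATRX_KO and −0.24 to 0.22 in the WT responses. DHCR7 then ran from −0.053 to 0.13 in DAXX_KO with etoposide, −0.090 to 0.15 for etoposide in ATRX-series WT and −4.4e-04 to 0.25 in the WT responses. SREBF2 then ran from −0.15 to 0.17 in DAXX_KO with etoposide and −0.16 to 0.15 for etoposide in ATRX_KO. IDI1 then ran from −0.40 to 0.19 in the response of DAXX_KO minus WT, −0.11 to 0.16 in ATRX_KO control and −0.16 to 0.42 in the knockout effects with etoposide. FDPS then ran from −0.091 to 0.091 in ATRX_KO control, −0.034 to 0.11 in the WT responses and −0.12 to 0.090 in the knockout effects with etoposide. LSS then ran from −0.062 to 0.089 in ATRX_KO control. FDFT1 then ran from −0.031 to 4.7e-04 for etoposide in ATRX-series WT, −0.22 to 0.0089 in the response of ATRX_KO minus WT, −0.046 to 0.011 in the WT responses and −0.025 to 0.015 in WT control between series. SREBF1 then ran from −0.37 to 0.063 in ATRX_KO control and −0.29 to 0.14 for etoposide in ATRX_KO.

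Same-numbered libraries did not deviate together (correlations of −0.28 to 0.0739 over 36 comparisons), so the numbers were not taken as pairs. The lowest count of the 8 genes in a library was 38, for MVD.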
